A study of Mus musculus with 10 samples.

Results

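The Notch receptors, their vascular ligands and their direct target genes were followed in whole mouse hearts after endurance training. The 10 genes were listed by name and not by a threshold on their values: the receptors Notch1, Notch2, Notch3 and Notch4, the ligands Dll4 and Jag1, and the transcriptional repressors Hes1, Hey1, Hey2 and Heyl. They are 10 of the 56748 genes in the count files, and all 10 were among the 15454 genes with enough counts to be tested. RNA was sequenced from the hearts of 5 training mice and 5 sedentary mice, 1 library per heart, so that every n below is 5 hearts per group. All mice were wild-type C57BL/6 males of the same age, 8 weeks old at the outset. The training mice (labelled Exercise) ran on a treadmill at 15 m/min for 120 minutes a day on 5 days a week over 8 weeks, and the sedentary mice (labelled Control) did not train. The tissue was the whole heart with its ventricles and both atria, so the counts mix the RNA of muscle, vessel and connective tissue cells. In such a mixture, fewer cells of a type and less RNA per cell cannot be told apart. Depth ranged from 29461697 to 35945417 gene counts per training library and from 35196993 to 39431030 per sedentary library.

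Notch signaling passes between cells that touch. A ligand of the Delta or Jagged family on one cell pulls on a Notch receptor on its neighbour, the receptor is cut by an ADAM protease and then by γ-secretase, and the freed intracellular part joins RBPJ on DNA to switch on genes of the Hes and Hey families. In the heart and its vessels, Notch1, Notch4 and Dll4 are known from endothelial cells, Notch3 and Heyl from the mural cells around small vessels, and Jag1 from endothelium, smooth muscle and fibroblasts. The pathway is known for its part in sprouting of vessels, in arterial identity and in the formation of valves and trabeculae.

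Between training and sedentary hearts, 1 of the 10 genes passed the test for a difference. Notch4 was 20.4% lower after training, and the others did not pass the test in either direction. Expression was measured in CPM, the counts of a gene relative to the library's total, with library sizes corrected by the trimmed mean of M-values (TMM). Groups were compared by the quasi-likelihood test of edgeR, with p adjusted over all tested genes by Benjamini-Hochberg, and a gene was called at an adjusted p below 0.1. Across the 15454 genes, 2.75% were called higher and 4.26% were called lower in training hearts, and in 5.06% the values of the groups did not overlap. An unadjusted p below 0.05 was found for 3087 of the 15454 genes. Of the 10 Notch genes, 0 were called higher and 1 was called lower, which is also the only one with an unadjusted p below 0.05 and the only one whose groups did not overlap. DESeq2 called the same gene and no other of the 10. The log2 fold changes (training against sedentary) of the 10 genes had a median of 0.03, with 7 above 0 and 3 below, and the median of all tested genes was 0.000259. With library totals in place of TMM factors, the calls among all genes turned from 425 higher and 659 lower to 1029 higher and 339 lower, the median of all genes moved to 0.05, and Notch4 was still the only Notch gene called.

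**Figure D1:**
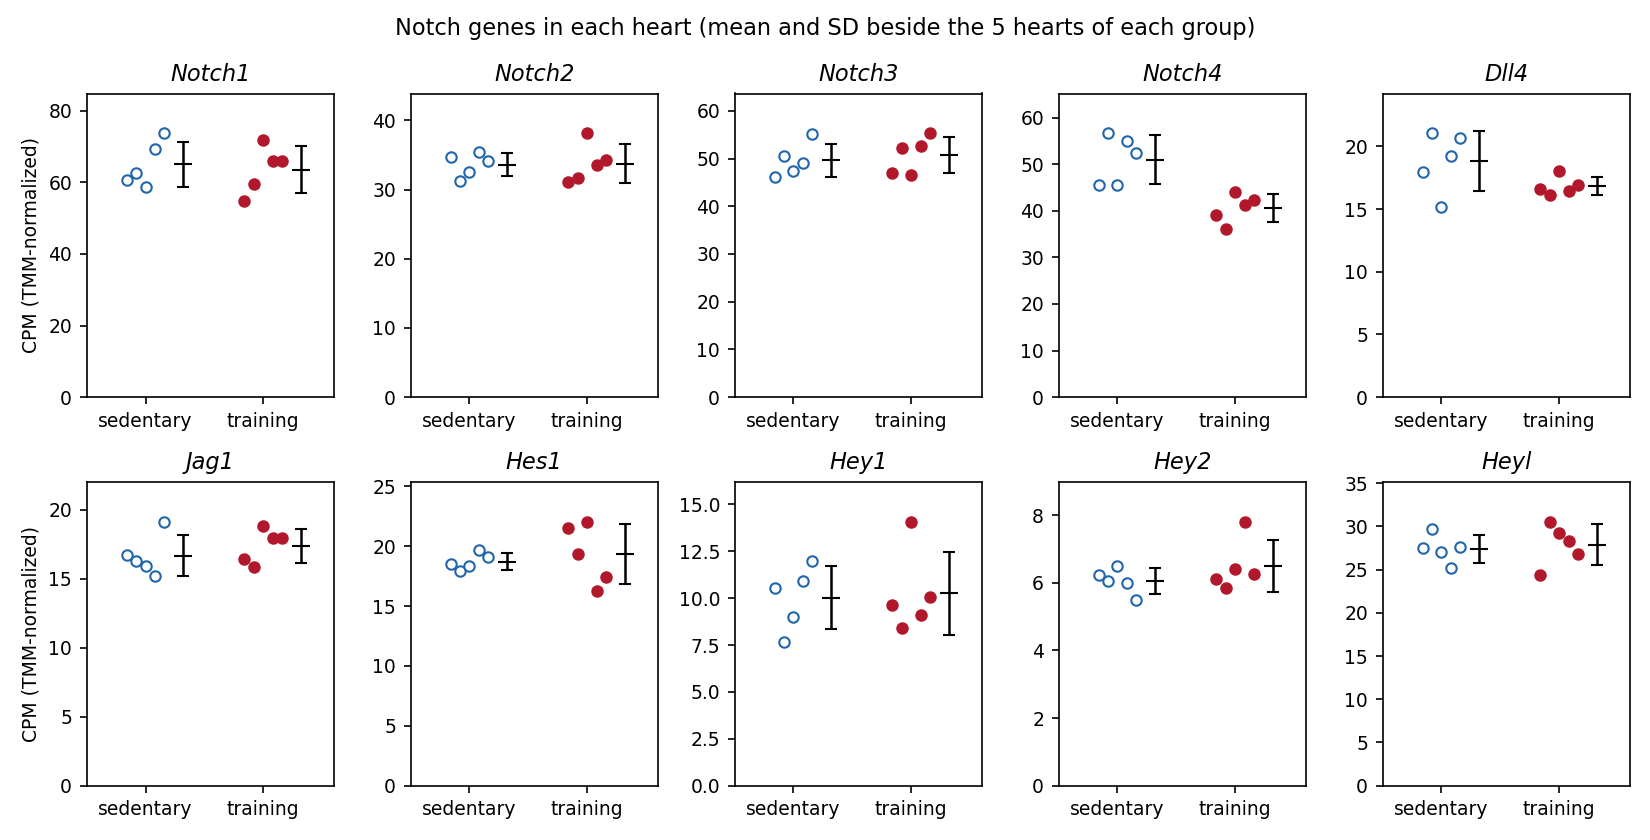
CPM of the 10 Notch genes in each heart, 1 panel per gene with its own axis from 0, open circles for the 5 sedentary and filled circles for the 5 training hearts, and bars for the mean and SD. The training values of Notch4, from 36.2 to 43.9 CPM, all lie under the sedentary values, which begin at 45.5 CPM, and in the other panels the groups overlap.

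Levels of different genes were compared per length, with the TPM values (transcripts relative to the library's total, scaled by length) that the authors deposited from RSEM. Hes1 stood highest, with a mean of 15.5 TPM over all hearts (SD 1.63, n = 10) and a range from 13.0 to 18.7 TPM. Notch4 came next at 8.99 ± 1.34 TPM, followed by Notch1 at 8.10 ± 0.727 TPM and Notch3 at 6.74 ± 0.731 TPM. Among receptors, Notch2 had the lowest level with 3.50 ± 0.349 TPM. The repressors of the Hey family spread from Heyl at 6.51 ± 0.630 TPM through Hey1 at 5.29 ± 0.896 TPM to Hey2 at 2.60 ± 0.319 TPM. The ligands lay at 5.22 ± 0.612 TPM for Dll4 and 3.92 ± 0.548 TPM for Jag1.

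Of neighbours in this order, only Hes1 and Notch4 had ranges that did not overlap. Notch4 was above Notch1 in 7 of 10 hearts, and the other three were training hearts. In the training group the order of these receptors turned, with 8.00 ± 1.18 TPM of Notch4 and 8.39 ± 0.468 TPM of Notch1, against 9.97 ± 0.472 and 7.81 ± 0.875 TPM in sedentary hearts. Notch3 was above Heyl in 5 of 10 hearts, so their order did not hold across hearts. The order also depended on the length given to each gene. When CPM were divided by the length of the canonical transcript in place of RSEM's weighted length, Hes1, Notch4, Notch1, Notch3 and Heyl kept places 1 to 5, whereas Hey1 moved from place 6 to place 9.

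**Figure D2:**
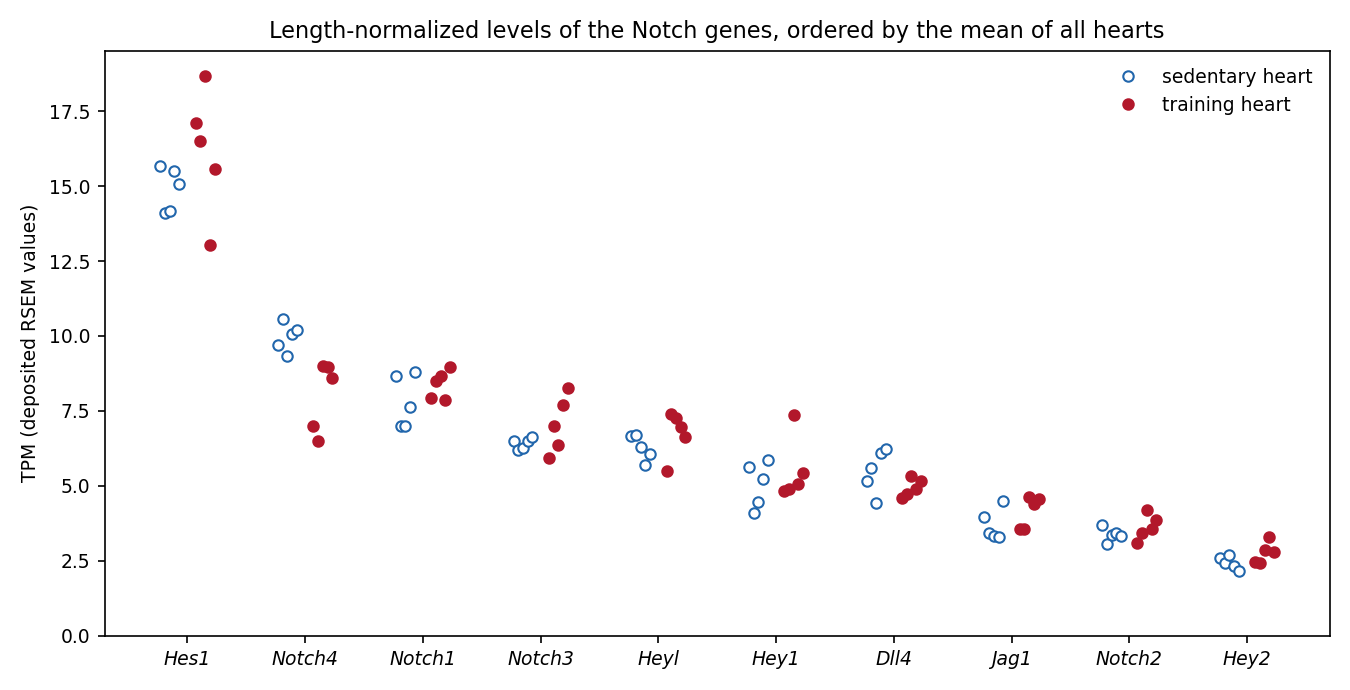
TPM of the 10 Notch genes in each heart, ordered by the mean over all hearts, with open circles for sedentary and filled circles for training hearts. Hes1 lies above all other genes, with at least 13.0 TPM, and Hey2 has the lowest mean at 2.60 TPM.

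Notch4, a receptor found mainly on endothelial cells, lies on chromosome 17 at 34783220 to 34807477 on the plus strand of GRCm39, and its identifier is ENSMUSG00000015468. The training hearts 1 to 5 had 39.1, 36.2, 43.9, 41.3 and 42.3 CPM, and the sedentary hearts 1 to 5 had 45.5, 56.7, 45.6, 55.0 and 52.3 CPM. Every training heart was below every sedentary heart, with a gap of 1.55 CPM between the highest training and the lowest sedentary value. The means were 40.6 ± 3.02 and 51.0 ± 5.24 CPM (SD, n = 5), which gave a log2 fold change of −0.33 (SE 0.07, adjusted p = 0.0278 by edgeR's quasi-likelihood test). The 95% interval of the change ran from −28.4% to −11.6%. Between 1263 and 1941 reads per heart stood behind these values. In the TPM of RSEM the groups did not overlap either, with 6.48 to 8.99 TPM in training and 9.32 to 10.6 TPM in sedentary hearts.

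Notch4 was also set against other transcripts of the same heart, in 4 ratios chosen after its values and those of the other receptors were seen, so that they are a description with no test. The log2 ratio of Notch4 to Notch3 was 0.36 lower in training hearts, with −0.32 ± 0.16 against 0.04 ± 0.12 (SD, n = 5). The ratio to Notch2 differed by −0.33 and in every training heart lay below every sedentary heart. The ratio to Notch1 differed by −0.29, with 4 of 5 training hearts below every sedentary heart. The fourth ratio was to a score of 15 endothelial marker genes, the mean of their centred log2 CPM, and it differed by −0.25 with all 5 training hearts below every sedentary heart.

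**Figure D3:**
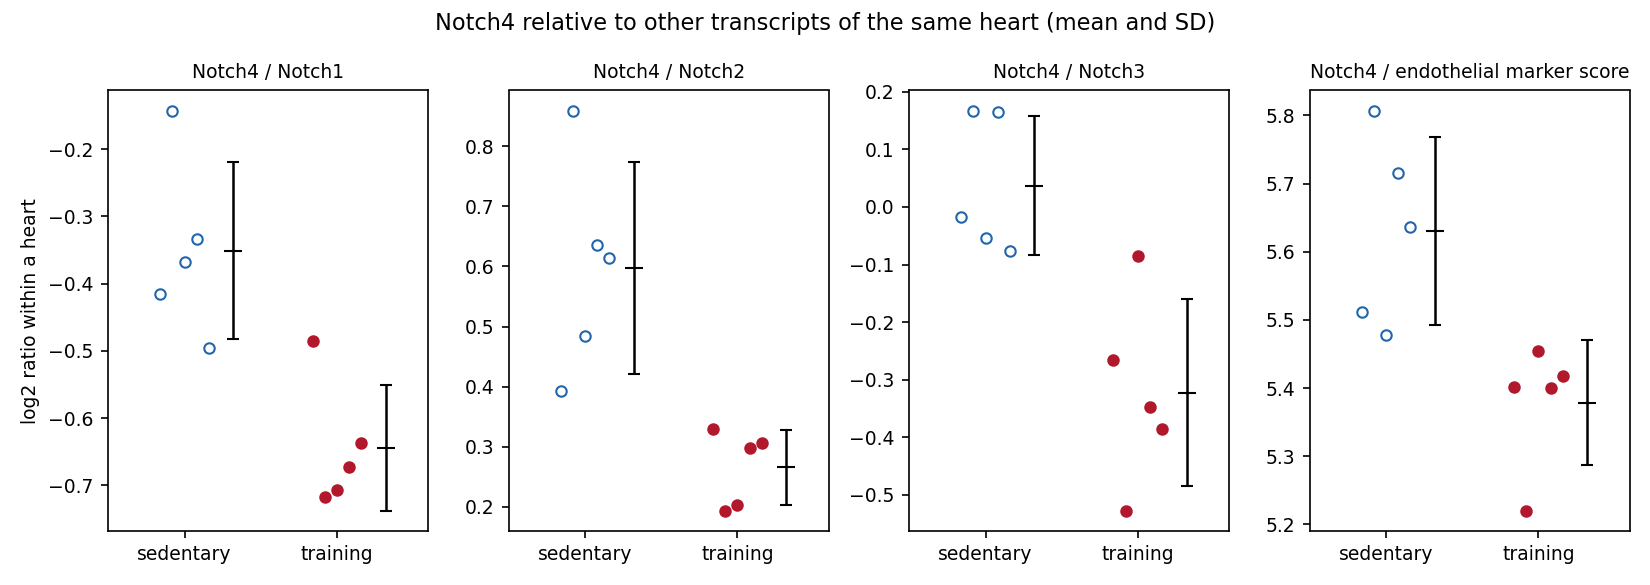
Log2 ratio of Notch4 to Notch1, Notch2, Notch3 and the endothelial marker score within each heart, open circles for sedentary and filled circles for training hearts, bars for the mean and SD, each panel with its own axis that does not start at 0. All training hearts lie below the sedentary hearts except in the ratio to Notch1, where 4 of 5 do.

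Some endothelial markers fell as well. Of the 15 markers, all tested, 3 were called lower and 0 higher by edgeR, beside 4.26% and 2.75% of all genes, with 10 below 0, 5 above 0 and a median log2 fold change of −0.09. An unadjusted p below 0.05 was found for 7 of the 15 markers, beside 3087 of all 15454 tested genes. Of the 7 markers, all but Vwf were below 0, and Vwf, the von Willebrand factor, had a log2 fold change of 0.26 (adjusted p = 0.193 by edgeR). Tek, Emcn, Erg and Eng were the others above 0. The 3 called lower were Esam, a junctional adhesion molecule (−0.23, adjusted p = 0.0158), Flt1, a VEGF receptor (−0.19, adjusted p = 0.0747), and Tie1, an orphan receptor of the angiopoietin system (−0.16, adjusted p = 0.0765). The summed level of the list was 1591 ± 70.9 CPM in training and 1645 ± 24.9 CPM in sedentary hearts, and Eng, its most abundant gene, had 282 ± 27.9 and 267 ± 16.0 CPM. Cdh5 and Pecam1, which define endothelium, had log2 fold changes of −0.15 and −0.09 and did not pass the test, and no marker of the list was at 0. With the endothelial score as a covariate, Notch4 had a log2 fold change of −0.20 and was no longer called (adjusted p = 0.305 by edgeR), and 577 genes were called in place of 1084. The score itself differs between the groups, by −0.08 on the log2 scale.

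Atrial markers differed between the groups as well. All 8 were above 0, 3 were called higher and 0 lower, beside 2.75% and 4.26% of all genes, and the median log2 fold change was 0.49. Sln, a regulator of the calcium pump of atrial muscle, had 232 ± 41.6 against 138 ± 39.7 CPM, and Dkk3 263 ± 41.0 against 159 ± 42.4 CPM. The third called gene was Stard10, with 142 ± 20.7 against 101 ± 21.8 CPM (0.48, adjusted p = 0.0613 by edgeR), while Nppa, the most abundant of the list, had 3516 ± 581 against 2554 ± 1004 CPM and did not pass. The summed level of the list was 8628 ± 1308 against 6368 ± 2135 CPM, and sedentary heart 1 was at the training level for several of its genes, with 4060 CPM of Nppa. With the atrial score as a covariate, only 88 of all genes were called, and Notch4 had a log2 fold change of −0.26 with an adjusted p of 0.312 by edgeR. The part of atrial tissue in the Notch4 result was not tested beyond this fit.

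Notch1, the receptor needed for arterial fate and valve formation, showed no difference beyond the spread of hearts. It lies on chromosome 2 at 26347915 to 26406675 on the minus strand (ENSMUSG00000026923). Training hearts 1 to 5 had 54.8, 59.5, 71.7, 65.9 and 65.9 CPM, and sedentary hearts 60.7, 62.6, 58.8, 69.3 and 73.8 CPM. Training heart 1 was lowest and sedentary heart 5 highest, with the rest of both groups mixed between them. The log2 fold change was −0.03 (SE 0.08), and the 95% interval ran from −12.8% to 9.51%.

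Notch2, on chromosome 3 at 97920800 to 98057677 on the plus strand (ENSMUSG00000027878), is a broadly expressed receptor. Training hearts had 31.1, 31.6, 38.1, 33.6 and 34.2 CPM, and sedentary hearts 34.6, 31.2, 32.6, 35.4 and 34.2 CPM. Apart from training heart 3 at the top, the groups covered the same range, and the 95% interval of the change ran from −7.90% to 9.54%. Notch3, the receptor of pericytes and smooth muscle, lies on chromosome 17 at 32339794 to 32385893 on the minus strand (ENSMUSG00000038146). Its training hearts had 47.0, 52.1, 46.6, 52.5 and 55.3 CPM, and its sedentary hearts 46.0, 50.5, 47.3, 49.0 and 55.2 CPM. Both groups began near 46 and ended near 55 CPM, and the 95% interval ran from −6.50% to 11.8%. A change of the size seen in Notch4 lay outside the intervals of these 3 receptors.

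The ligands did not pass the test. Dll4, the ligand of endothelial tip cells and arteries, lies on chromosome 2 at 119156170 to 119166443 on the plus strand (ENSMUSG00000027314). Training hearts 1 to 5 had 16.6, 16.1, 18.0, 16.4 and 16.9 CPM, and sedentary hearts 18.0, 21.1, 15.2, 19.2 and 20.7 CPM. All 5 training hearts were below the sedentary mean, but sedentary heart 3 was lower than any of them. The log2 fold change was −0.16 (SE 0.08, adjusted p = 0.273 by edgeR's quasi-likelihood test), and the 95% interval ran from −20.5% to 0.571%. Without sedentary heart 3 it was −0.22 with an adjusted p of 0.0935, so that Dll4 was then called and the count of Notch genes called rose to 2.

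Jag1, the ligand that passes the signal on to smooth muscle, lies on chromosome 2 at 136923373 to 136958693 on the minus strand (ENSMUSG00000027276). Training hearts had 16.4, 15.8, 18.8, 17.9 and 17.9 CPM, and sedentary hearts 16.7, 16.3, 15.9, 15.2 and 19.2 CPM. The highest and the lowest value both belonged to sedentary hearts. The log2 fold change of Jag1 was 0.06 (SE 0.07), with an interval from −5.76% to 15.6%. It differed by less than the spread between hearts. Among the other ligands, Jag2 had 36.6 ± 2.24 and 39.0 ± 5.46 CPM and Dll1 3.74 ± 0.410 and 4.27 ± 0.246 CPM in training and sedentary hearts, and neither was called (log2 fold changes −0.09 and −0.19). Dll3, Dlk1, Dlk2 and Dner were too low to be tested.

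The target genes are repressors of the basic helix-loop-helix type, and the sequence upstream of several of them, with Hes1 and Hey2 shown here, holds the core that RBPJ is known to bind. The core TGGGAA was searched on both strands in the 250 bases before the start of the canonical transcript in GENCODE M39, read from the GRCm39 genome. It was found in 22.8% of 21630 promoters and at least 2 times in 3.07% of them. Hes1 holds 2 copies on its own strand, at 49 to 44 and at 35 to 30 bases before the start, Hey2 holds 1 copy on the opposite strand, where it reads TTCCCA, and none was found for Heyl, the ligands or the receptors. A match is a description of these letters and not evidence of binding. The stretches below run 5′ to 3′ on the strand of the gene and are shown because they carry these matches, which are in capitals. They cover chr16:29883947-29884126 on the plus strand for Hes1 and chr10:30718829-30719008 on the minus strand for Hey2, without bases that are annotated as exons of the same gene.
Hes1: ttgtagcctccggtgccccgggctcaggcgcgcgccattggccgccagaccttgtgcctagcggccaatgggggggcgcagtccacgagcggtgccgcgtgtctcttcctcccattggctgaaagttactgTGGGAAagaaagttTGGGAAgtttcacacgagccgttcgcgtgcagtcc
Hey2: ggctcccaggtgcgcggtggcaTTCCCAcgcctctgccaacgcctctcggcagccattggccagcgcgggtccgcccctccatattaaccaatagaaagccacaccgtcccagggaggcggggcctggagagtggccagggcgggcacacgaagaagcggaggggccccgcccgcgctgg

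None of the 4 targets was called. Hes1, which keeps progenitor cells undifferentiated, lies on chromosome 16 at 29882134 to 29886643 on the plus strand (ENSMUSG00000022528). Training hearts had 21.5, 19.4, 22.1, 16.3 and 17.4 CPM, and sedentary hearts 18.5, 18.0, 18.3, 19.7 and 19.1 CPM. The training hearts lay on both sides of the narrow sedentary group, with a coefficient of variation of 13.0% against 3.69%. The log2 fold change of Hes1 was 0.05 (SE 0.08), with an interval from −7.83% to 16.0%.

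Hey1, on chromosome 3 at 8726956 to 8732385 on the minus strand (ENSMUSG00000040289), is a target active in endothelium and the atrioventricular canal. Training hearts had 9.65, 8.42, 14.1, 9.09 and 10.1 CPM, and sedentary hearts 10.6, 7.68, 9.00, 10.9 and 12.0 CPM. Training heart 3 stood above all others, and the remaining hearts mixed. Hey1 varied most of the 10 genes, with a coefficient of variation of 21.7% and 16.9%, and its interval from −16.9% to 26.3% was the widest of the 10. Hey2, which is needed for compact ventricular muscle and arteries, lies on chromosome 10 at 30708350 to 30718828 on the minus strand (ENSMUSG00000019789). Training hearts had 6.11, 5.84, 6.42, 7.81 and 6.27 CPM, and sedentary hearts 6.24, 6.04, 6.49, 6.00 and 5.48 CPM. Training heart 4 was highest, and 4 of 5 training hearts were above the sedentary mean, with a log2 fold change of 0.10 (SE 0.09, interval −5.89% to 22.1%).

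Heyl, a target expressed with Notch3 in mural cells, lies on chromosome 4 at 123127349 to 123143682 on the plus strand (ENSMUSG00000032744). Training hearts had 24.4, 30.6, 29.3, 28.3 and 26.8 CPM, and sedentary hearts 27.5, 29.7, 27.0, 25.2 and 27.6 CPM. The lowest and the highest heart were both training hearts, and the log2 fold change was 0.02 (SE 0.06, interval −7.43% to 11.5%). In Hes1, Hey2 and Heyl a fall of the size seen in Notch4 lay outside the interval. For Hey1 it did so with all hearts, but without training heart 3 the log2 fold change of Hey1 was −0.11 (SE 0.11). Mural markers, whose cells express Notch3 and Heyl, moved in both directions, with 2 of 12 called higher and 1 lower, beside 2.75% and 4.26% of all genes, and a median of −0.00291. Tagln (0.54) and Cnn1 (0.75), contractile genes of smooth muscle, were called higher, and Rgs5, a pericyte gene and the most abundant of the list with 486 ± 30.9 against 552 ± 33.5 CPM, was called lower (−0.18). The list summed to 1368 ± 75.5 and 1396 ± 74.1 CPM.

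The rest of the pathway was described with 75 further genes in 7 lists, ordered by step. Of these, 66 could be tested, 2 were called higher and 4 lower, beside 2.75% and 4.26% of all genes, 40 had a log2 fold change above 0 and 26 below, and their median was 0.02. The groups did not overlap in 5 of the 66 genes, 2 higher and 3 lower, beside 5.06% of all genes in either direction. These 5 are among the 6 called genes, which were picked on the same values, so the lack of overlap adds no support. DESeq2 called 7, the same 6 and Poglut2. With library totals in place of TMM factors the balance turned to 3 higher and 1 lower: Furin, Adam17 and Ncor1 lost their calls, and Rbpj was called higher (0.19, adjusted p = 0.0763 by edgeR).

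Both genes called higher modify the receptor's extracellular repeats. Of the 10 glycosylation genes, all tested, 2 were called higher and 0 lower, beside 2.75% and 4.26% of all genes. The list went in both directions, with 6 log2 fold changes above 0 and 4 below. An unadjusted p below 0.05 was found for 6 of the 10, beside 3087 of all 15454 tested genes. Gxylt2, which adds xylose to the O-glucose on these repeats, had 9.28, 9.53, 10.0, 10.6 and 9.92 CPM in training and 7.75, 6.80, 8.65, 7.17 and 7.97 CPM in sedentary hearts. Every training heart lay above every sedentary heart (log2 fold change 0.36, SE 0.07, adjusted p = 0.0220 by edgeR). Poglut3, which adds O-glucose, had 14.8, 14.5, 14.6, 14.6 and 14.7 CPM in training and 13.4, 12.2, 13.4, 11.4 and 12.3 CPM in sedentary hearts. The training hearts were again all higher and lay close together, with a log2 fold change of 0.22 (SE 0.05, adjusted p = 0.0416 by edgeR). None of the other glycosylation genes passed by edgeR, though DESeq2 called Poglut2 lower (−0.17, adjusted p = 0.09998 by its Wald test). Of these Poglut2, which like Poglut3 adds O-glucose, had the smallest p and the opposite sign, with 13.1 ± 0.679 against 14.7 ± 0.832 CPM (−0.17, adjusted p = 0.112 by edgeR), and Lfng, a Fringe enzyme that alters which ligand a receptor answers to, stood at 5.16 ± 0.206 against 6.02 ± 0.664 CPM (adjusted p = 0.168).

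Of 10 genes for cutting the receptor, 2 were lower, beside 4.26% of all genes. Furin, which cleaves the receptor on its way to the surface, had 112, 123, 132, 121 and 129 CPM in training and 153, 134, 140, 144 and 137 CPM in sedentary hearts, with no overlap (log2 fold change −0.20, SE 0.05, adjusted p = 0.0482 by edgeR). Adam17, a protease that can shed the ectodomain, had 33.3 ± 1.95 against 37.0 ± 1.04 CPM and no overlap (−0.15, adjusted p = 0.0928). This call was held in 2 of the 10 fits that leave out a heart. Adam10, the main protease for ligand-driven cleavage, had 50.7 ± 2.04 and 49.0 ± 2.02 CPM, and neither it nor Psen2, Ncstn, Aph1a, Aph1b, Aph1c and Psenen, which encode γ-secretase subunits, was called.

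In the nucleus, Rbpj, the DNA-binding partner of the receptor, had 24.2 ± 1.31 against 22.0 ± 0.609 CPM and did not pass (log2 fold change 0.14, adjusted p = 0.133 by edgeR). Of the 9 activating factors 0 were called, beside 2.75% of all genes called higher and 4.26% called lower. Only 1 of the 9, Rbpj, had an unadjusted p below 0.05, beside 3087 of all 15454 tested genes. Kat2a and Kat2b, acetyltransferases and the next by p, had log2 fold changes of −0.10 and 0.04, and Kat2b was the most abundant of the list with 115 ± 3.55 against 111 ± 4.07 CPM. Of 13 tested repressive factors 1 was called lower and 0 higher, beside 4.26% and 2.75% of all genes. This was Ncor1, a co-repressor of many transcription factors, with 146 ± 5.44 against 162 ± 9.79 CPM and overlapping groups (−0.15, adjusted p = 0.0957 by edgeR). Its call was held in 1 of the 10 fits that leave out a heart.

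The 14 genes for trafficking and ubiquitination held 0 calls by edgeR, beside 2.75% of all genes called higher and 4.26% called lower. Of all 15454 tested genes, 3087 had an unadjusted p below 0.05, and of the 14 genes 3 did. These were Neurl1a, a ubiquitin ligase for ligands, at 1.45 ± 0.257 against 1.85 ± 0.149 CPM (−0.36, adjusted p = 0.186), Mib1, the ligase that activates ligands, at 42.4 ± 2.74 against 39.0 ± 2.19 CPM (0.12, adjusted p = 0.227), and Itch, a ligase that acts on receptors, at 43.5 ± 1.89 against 40.5 ± 2.12 CPM (0.10, adjusted p = 0.250).

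Among 12 further target genes, 8 were tested and Cdkn1a alone was called, as lower. Of all genes, 2.75% were called higher and 4.26% lower. Cdkn1a encodes the cell cycle inhibitor p21, which Notch can induce in some cells and which p53 also induces. Training hearts 1 to 5 had 94.1, 106.7, 104, 102 and 90.2 CPM, and sedentary hearts 180, 214, 184, 137 and 143 CPM. The highest training heart was well below the lowest sedentary heart, with a log2 fold change of −0.79 (SE 0.10, adjusted p = 0.00504 by edgeR). The other seven, with Nrarp, a feedback inhibitor of Notch (9.85 ± 1.17 against 8.70 ± 0.666 CPM, adjusted p = 0.253), were not called. Hes2, Hes3, Hes5 and Hes7 were too low to be tested.

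**Figure D4:**
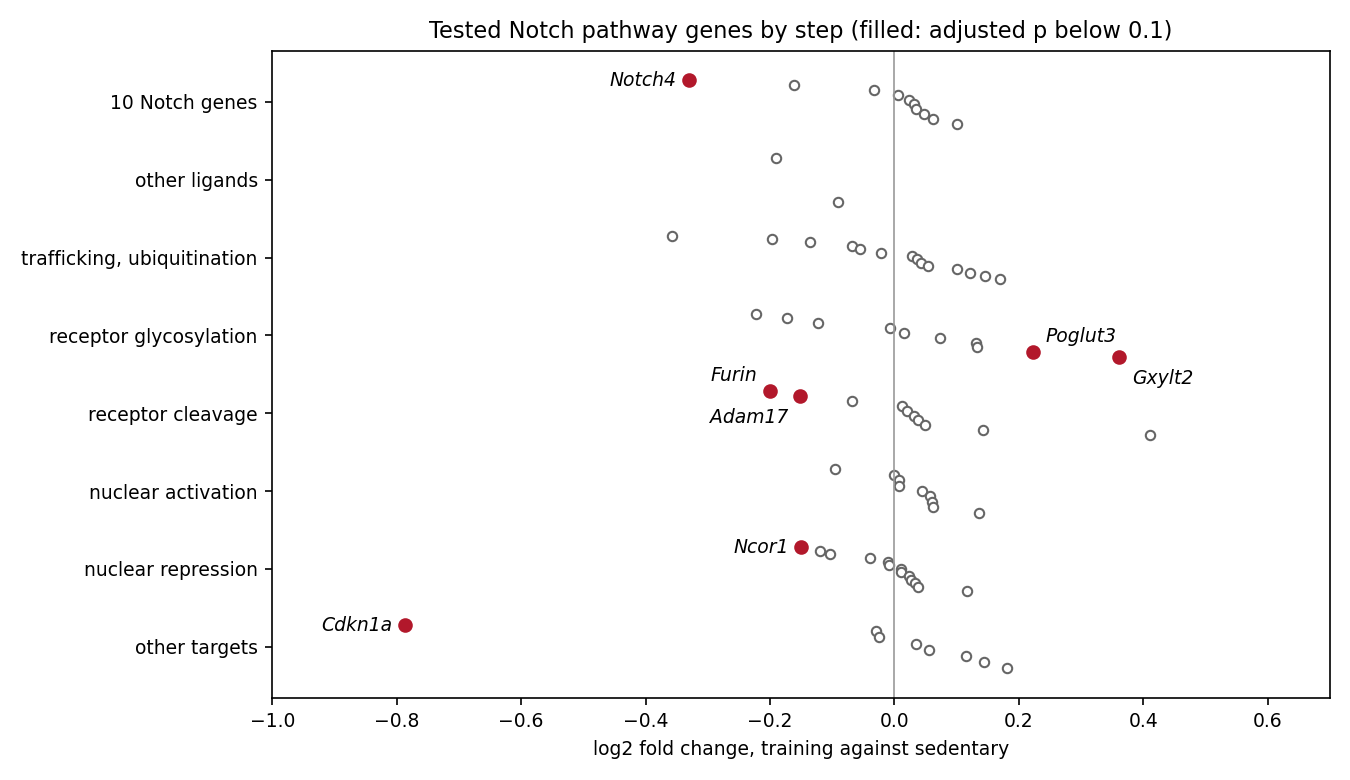
Log2 fold change between training and sedentary hearts for the 10 Notch genes and the 66 other tested pathway genes, grouped by step, each point 1 gene. Filled and named points passed an adjusted p below 0.1: Notch4, Furin, Adam17, Ncor1 and Cdkn1a to the left of 0, and Poglut3 and Gxylt2 to the right.

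Under 24 alternatives, Notch4 kept its direction in all and its call in 22. Leaving out each heart in turn gave log2 fold changes between −0.37 and −0.29 with adjusted p between 0.0132 and 0.0692 by edgeR. The 2 fits without a call were those with the atrial and the endothelial score as covariates. Gxylt2 lost its call with the atrial score alone, and Poglut3 with the atrial, endothelial and mural scores. Furin lost it in 4 fits, namely without training heart 4, without sedentary heart 3, with library totals and with the endothelial score. Cdkn1a was called in all 24. Adam17 kept its call in 2 of the 10 fits that leave out a heart and in 8 of the 14 others. For Ncor1 these were 1 of 10 and 6 of 14.

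**Figure D5:**
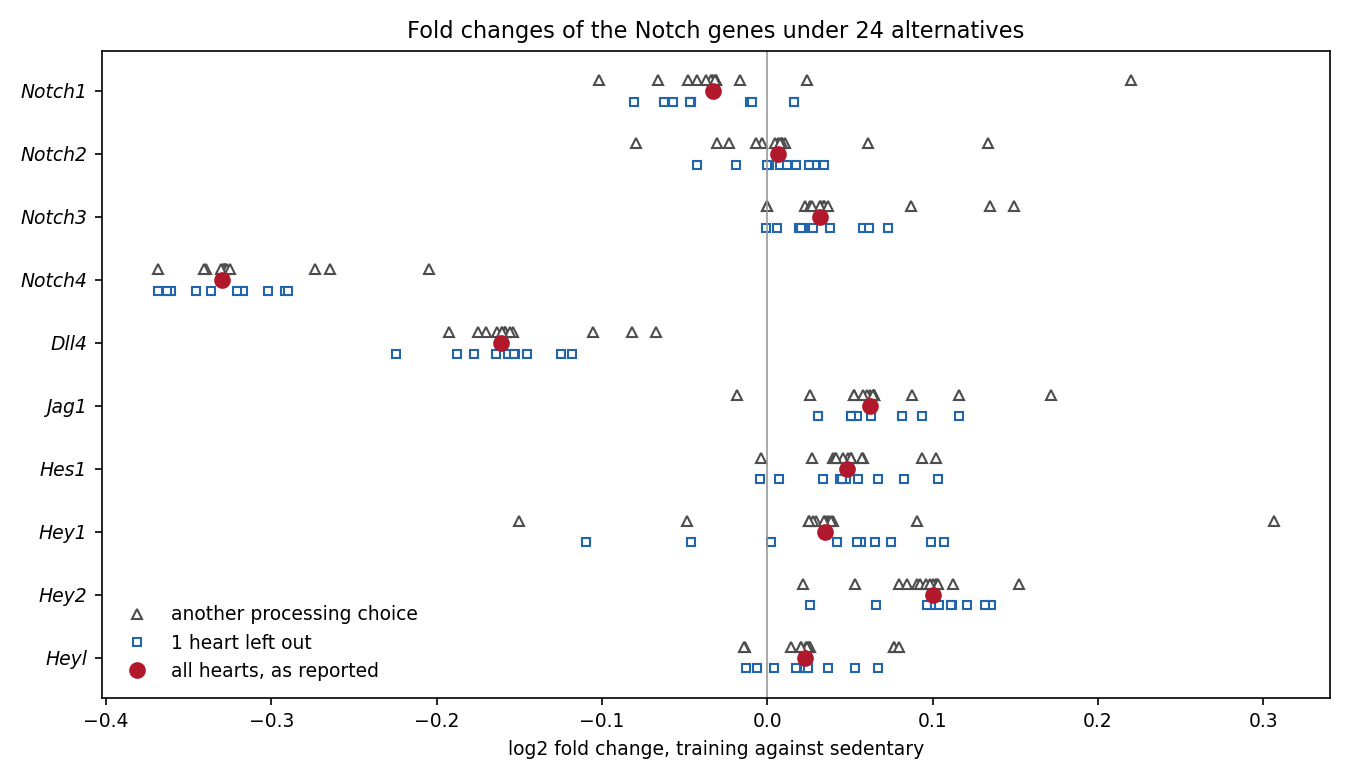
Log2 fold changes of the 10 Notch genes as reported (filled circles), with 1 heart left out (squares) and under other processing choices (triangles). Notch4 stays between −0.37 and −0.20 and Dll4 below 0, and Notch1, Notch2, Notch3, Jag1, Hes1, Hey1 and Heyl have values on both sides of 0.

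Few reads lay on the opposite strand. On the strand opposite to Notch4 lay 0.197% of its counts on either strand. The share was largest for Notch3 with 4.62%, whose exons overlap those of Gm17276 on the other strand by 804 bases, and below 1% for the others. Notch2 shares 541 exonic bases with Gm42820 on its own strand, so its reads there cannot be assigned by strand.

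Genes that varied most like each Notch gene from heart to heart were sought among all 15454 tested genes, over 10 hearts and after the group means were subtracted. With so many genes and so few hearts, high values arise for any gene, and hearts share depth and tissue makeup between genes, so these names are a description. For Notch4 they were Nopchap1 (Pearson r = 0.98), Sorcs2 (0.91) and Tln2 (0.91), and for Dll4 Commd10 (0.98), Cnot2 (0.97) and Zfp850 (0.93). Jag1 was followed most closely by Prdm6 (0.95), Efnb2 (0.94) and Tacc3 (0.94), and Hey1 by Frmd4b (0.96), Snai1 (0.95) and Fgd6 (0.94). Efnb2 and Snai1 also stand on the list of other Notch targets. The closest for the remaining genes were Klhl42 for Notch1, Zfp281 for Notch2, Gm3365 for Notch3, Gm34276 for Hes1, Hrh2 for Hey2 and Arhgef40 for Heyl, with values between 0.95 and 0.98.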

How the data were processed

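For each heart the authors deposited counts of uniquely mapped reads per gene from STAR 2.7.10a (GRCm39), neither normalized nor filtered, and RSEM 1.3.3 results. The latter hold expected counts and TPM (length-normalized by the authors, strand setting not stated) with gene lengths. Libraries were directional, poly-A selected and sequenced in 1 pool. Reverse-strand counts were used, a median of 95.4% of counts on either strand. Multimapping reads, up to 19.2% of reads, are not in these counts, and neither are lines that name no gene. Symbols came from GENCODE M39 for 56017 of 56748 identifiers.

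Groups followed the labels. For the comparison of counts, edgeR 4.0.16 (R 4.3.3) was run with its filterByExpr filter, TMM factors and quasi-likelihood F test, with Benjamini-Hochberg adjusted p below 0.1 as the threshold. Scores used log2 CPM with a prior count of 2. Alternatives included DESeq2 1.42.0, other scalings and filters, rounded expected counts, both strands, thinned counts, trends of GC content and length removed by loess (span 0.3), and marker scores as covariates. The mouse numbers of the labels were not used as pairs, since the residual correlations of hearts with the same number ran from −0.10 to 0.16. Libraries of a group differed by more than sampling noise, as the chi-square of each pair was at least 6.15 times its degrees of freedom.

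All 10 Notch genes were named. Of the other Notch lists, called genes were named, or up to 3 of the smallest p where none was called. Of 15 marker lists (endothelium, arterial and lymphatic endothelium, endocardium, mural cells, fibroblasts, cardiomyocytes, atria, macrophages, Schwann cells, adipocytes, epicardium, erythroid cells, lymphocytes, skeletal muscle), the most abundant gene and up to 4 called genes were named. Cdh5, Pecam1 and the genes named as not called beside these were added after their values were seen. Genes and lists were chosen with earlier results of these data known. Some items, a promoter sequence among them, are not reported here.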

Additional observations from a re-analysis of the deposited data

Results flagged for a closer look

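Hey1 in training heart 3 stood apart from the rest of its group, with 14.1 CPM against 8.42 to 10.1 CPM in the other four training hearts. Its gap to the nearest heart was 0.712 of the range of the group, just over the critical value of 0.71 for 5 values. The check covered 20 groups, the 10 Notch genes in training and in sedentary hearts, and chance alone flags about 1 in 20. Without training heart 3, Hey1 had a log2 fold change of −0.11 and was not called.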

How the results depend on the processing

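Of the 10 Notch genes 1, Notch4, was called in the reported fit and under the alternatives, except that 0 were called with the atrial or the endothelial score as a covariate (Notch4 −0.26 and −0.20, adjusted p = 0.312 and 0.305 by edgeR), and 2 without sedentary heart 3, so that leaving out a heart gave 1 to 2. The count of other pathway genes, 6, became 2 with the atrial, 3 with the endothelial and 3 with the mural score, and 3 to 8 when a heart was left out, with the low of 3 when training heart 4 or sedentary heart 3 was left out and the high of 8 when sedentary heart 1 was. The calls among all genes moved in these fits too, from 1084 to 88, 577 and 400 with the 3 scores, to 512 for each of the hearts with the low and to 1490 for the heart with the high. Library totals, no filter, RSEM expected counts and an adjusted p below 0.05 each gave 4, and DESeq2 size factors in edgeR gave 5. DESeq2 gave 7 and thinned counts gave 8, with 1473 and 1051 calls among all genes. With the mouse number as a replicate block the counts stayed at 1 and 6, and Notch4 had −0.33 (adjusted p = 0.0427). Same-numbered hearts did not deviate together, and 3 of 10 hearts correlated best with their own number. Of the Notch genes that were not called, several changed sign. Library totals gave 0.0240 for Notch1, no filter −0.00294 and thinned counts −0.00673 for Notch2. The atrial score gave −0.0792 for Notch2, −0.00369 for Hes1 and −0.15 for Hey1, and the endothelial score 0.22 for Notch1 (adjusted p = 0.110). The mural score gave −0.0307 for Notch2, −8.1e-05 for Notch3, −0.0181 for Jag1, −0.0485 for Hey1 and −0.0140 for Heyl, and removal of the length trend −0.0230 for Notch2, −0.000136 for Notch3 and −0.0138 for Heyl. Leaving out a heart gave ranges of −0.0806 to 0.0160 for Notch1, −0.0423 to 0.0342 for Notch2, −0.00102 to 0.0729 for Notch3, −0.00447 to 0.10 for Hes1, −0.11 to 0.11 for Hey1 and −0.0130 to 0.0672 for Heyl. The cause of these shifts was not tested. Hey2, with 189 to 251 reads a heart, rests on the fewest reads of the 10.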

Other observations

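Some markers of connective tissue and endocardium were higher in training hearts. Of 10 fibroblast markers 3 were called higher and 0 lower, beside 2.75% and 4.26% of all tested genes, with a median log2 fold change of 0.19. They were Gsn, an actin-severing protein and the most abundant of the list with 1965 ± 237 against 1574 ± 64.3 CPM (0.32, adjusted p = 0.0320 by edgeR), Pdgfra (0.24, adjusted p = 0.0627) and the proteoglycan Lum (0.27, adjusted p = 0.0887). All 6 endocardial markers were above 0, with 1 called higher and 0 lower, beside 2.75% and 4.26% of all tested genes. An unadjusted p below 0.05 was found for 4 of the 6, beside 3087 of all 15454 tested genes. The only call was Cytl1, at 26.9 ± 2.92 against 19.6 ± 2.50 CPM (0.46, adjusted p = 0.0216 by edgeR). Vwf, the most abundant and also one of the endothelial markers, had 163 ± 14.9 against 137 ± 24.6 CPM (adjusted p = 0.193 by edgeR). The 8 arterial markers were divided, with 2 called higher and 1 lower, beside 2.75% and 4.26% of all tested genes. Fbln5, an elastic fibre protein and the most abundant of them, and Bmx, an endothelial kinase, were called higher (0.26 and 0.42, adjusted p = 0.0697 and 0.0920), and Sema3g was called lower (−0.18, adjusted p = 0.0814).

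Cardiac muscle genes defined the tissue as labelled, with Myh6 at 27236 ± 553 and 29353 ± 1214 CPM. All 10 cardiomyocyte markers were below 0, with a median of −0.11. Of these 1 was called lower and 0 higher, beside 4.26% and 2.75% of all genes. This was Actc1, cardiac actin, at 8022 ± 849 against 10470 ± 858 CPM (−0.38, adjusted p = 0.0220 by edgeR). Of 8 markers of skeletal muscle 5 were tested, and 2 were called lower and 0 higher, beside the same shares of all genes. These were Ckm (−0.22, adjusted p = 0.0282 by edgeR) and Acta1 (−0.84, adjusted p = 0.0935), both also expressed in heart muscle. The fast myosins Myh1, Myh2 and Myh4, which define skeletal muscle, were too low to be tested.

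The remaining 7 lists, with 2 to 10 tested genes each, held 0 calls by edgeR, beside 2.75% of all genes called higher and 4.26% called lower. Their median log2 fold changes were −0.09 for macrophages (most abundant gene F13a1), 0.06 for lymphatic endothelium (Prox1, which cardiac muscle also expresses), 0.16 for Schwann cells (Cnp, 2 of 6 genes at an unadjusted p below 0.05), 0.84 for adipocytes (Cidec), 0.09 for epicardium (Upk3b), −0.43 for erythroid cells (Hbb-bs, 1 of 5 tested genes at an unadjusted p below 0.05) and 0.05 for the 2 tested lymphocyte genes (Trac). Among all 15454 tested genes, 3087 had an unadjusted p below 0.05. Sox17 and Vwf stand on 2 marker lists each, and Efnb2 on the arterial list and on that of other Notch targets.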
